A study of Mus musculus with 136 samples.

Results

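The p53 targets and DNA damage response list held 32 mouse genes: p53 itself, its feedback partners, its best known targets and a few further damage response genes, and every array probe annotated to 1 of them was taken as a member. Of the 32 genes 30 had a named probe, with 62 probes in all, among 16593 genes and 25697 probes of the array, while Trp53 and Bax, the pore-forming apoptosis effector, had none in the annotation used. Ionizing radiation breaks DNA, and one of the best known answers of a mammalian cell is the p53 programme. The p53 protein, encoded by Trp53, is stabilised after damage and switches on genes that hold the cell cycle, repair DNA, limit oxidative and metabolic stress, or start apoptosis, and Mdm2, itself a p53 target, sends p53 to degradation and closes the loop.

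The genes were followed in 6 tissues of nude mice on the BALB/c background (strain CAnN.Cg-Foxn1nu/Crl, female, 9 months old), 24 h after an intravenous injection at 9:00, 12:00 or 15:00 of 90 kBq 131I as sodium iodide in saline, or of saline alone. 131I is a radioisotope of iodine that emits beta particles and photons and that the thyroid takes up. The purpose was to see how the time of injection changes the transcriptional response to 131I. Each tissue gave 131I groups of 4 samples at each time (3 thyroid samples at 12:00) and saline groups of 4 samples at 9:00 (3 kidney medulla samples) and of 3 at 12:00 and at 15:00. All mice, saline controls included, carried the nude Foxn1 mutation and so lacked a normal thymus and most mature T cells. The labels do not tie samples to mice, so samples of different tissues can come from the same animal, and the mice of a group were kept in a cage of their own, so cage and group cannot be told apart. P-values measure the spread between these samples.

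Expression was read on Illumina MouseRef-8 bead arrays, and a level is the log2 of a background-corrected, quantile-normalized intensity, on which probes at background lie near 5. Between 34.7 and 51.9% of all probes were above background on an array. Tests were limited, in each tissue, to probes above background on 3 arrays or more, which left 39 member probes of 25 genes in the thyroid, 48 of 27 in the spleen, 48 of 28 in the lungs, 36 of 24 in the liver and 43 of 27 in each of the kidney cortex and kidney medulla. Aen passed in no tissue, and Eda2r passed in the thyroid only. Regulated transcripts were those with a limma p-value, adjusted over all probes of the tissue, under 0.01 and a change of at least 1.5-fold. Defining markers were above background on every array for 10 of 10 liver genes in the liver and 10 of 10 lung genes in the lungs. The same held for 8 of 8 lymphocyte genes in the spleen and 14 of 17 proximal tubule genes in the kidney cortex. In the kidney medulla it held for 9 of 17 papilla and urothelium genes, of which 16 were above background on 3 arrays or more. It also held there for 13 of 17 proximal tubule genes. In the samples labelled thyroid, however, 8 of 10 follicular cell markers, Tg and Slc5a5 among them, were above background on none of the 23 arrays, so that these samples are called by their label only. A repeat array of the kidney medulla, 131I, 9:00, replicate 3, resembled another sample of that tissue (r = 0.405 over probe deviations) more than its own replicate (r = 0.121). The other 5 repeat arrays matched their own replicate best.

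Across all 24 comparisons of 131I with saline, 6 member probes were regulated. They were 3 probes of Ccng1, 1 of Cdkn1a and 1 of Fas, all higher in the thyroid at 9:00, and Ddit4, lower in the kidney medulla when the 3 times were pooled. These were 5 of 39 member probes in the thyroid, beside 12.3% of all probes there, and 1 of 43 in the medulla, beside 2.79% of all. In the spleen, lungs, liver and kidney cortex 0 member probes were regulated, beside 0 to 1.45% of all probes. The colour map of fold-changes shows the brightest tested probe of each gene.

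**Figure D1:**
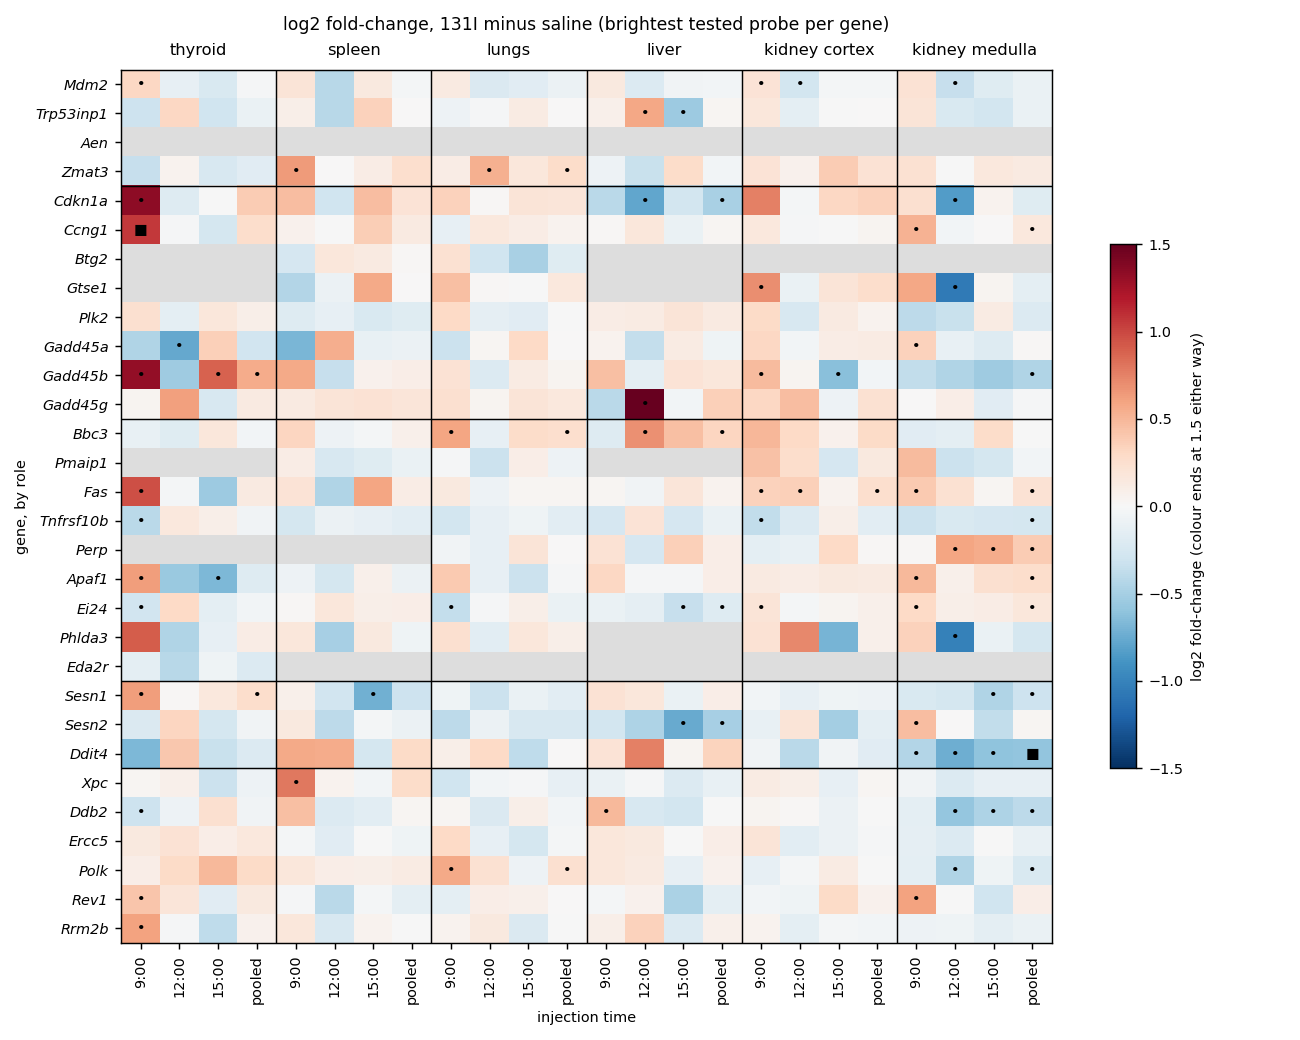
Log2 fold-change, 131I minus saline, of each member gene (rows, by role, brightest tested probe) in 6 tissues at each injection time and pooled (columns). Squares mark regulated probes, dots an unadjusted p-value under 0.05, and grey cells genes that were not tested. The squares fall on Ccng1 in the thyroid at 9:00 (1.06) and on Ddit4 in the kidney medulla pooled (-0.59).

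RefSeq promoter windows (250 bases before to 50 after a transcription start, GRCm38.p6) were at hand for 31 starts of 24 members. The decamer consensus of p53, searched on both strands, occurred in 12 of the 31 windows and in 8.36% of the 32851 windows of all genes. A pair of decamers separated by at most 13 bases, the form of a complete p53 response element, occurred in 1 member window, of Cdkn1a. It occurred in 24 of all 32851 windows (0.0731%). A further Cdkn1a window (chr17:29093519-29093818) held no decamer. The E-box CACGTG, the letters bound by the CLOCK and BMAL1 proteins of the circadian clock, occurred in 9 of the 31 windows and in 7.15% of all windows. Those 9 windows were of 9 members (Aen, Bax, Bbc3, Eda2r, Fas, Gadd45b, Gadd45g, Rev1 and Trp53). The GC box GGGCGG occurred in 22 of the 31 windows, of 19 members, and in 35.7% of all windows. A window each of Cdkn1a, Ccng1, Mdm2 and Ei24 is printed as an example of those with the decamer, with the bases of each match in capitals. Aen, Bax, Gadd45a, Gtse1, Polk, Sesn1 and Trp53 also had a window with the decamer, which is not printed. Fas and Ddit4 windows held no match.
Cdkn1a (chr17:29090729-29091028, plus strand): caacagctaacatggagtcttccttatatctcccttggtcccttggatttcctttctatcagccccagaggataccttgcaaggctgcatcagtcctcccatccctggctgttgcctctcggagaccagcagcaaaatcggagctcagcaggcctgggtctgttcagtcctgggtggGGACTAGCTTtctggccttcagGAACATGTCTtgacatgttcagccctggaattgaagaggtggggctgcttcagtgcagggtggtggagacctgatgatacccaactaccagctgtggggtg
Ccng1 (chr11:40755237-40755536, minus strand): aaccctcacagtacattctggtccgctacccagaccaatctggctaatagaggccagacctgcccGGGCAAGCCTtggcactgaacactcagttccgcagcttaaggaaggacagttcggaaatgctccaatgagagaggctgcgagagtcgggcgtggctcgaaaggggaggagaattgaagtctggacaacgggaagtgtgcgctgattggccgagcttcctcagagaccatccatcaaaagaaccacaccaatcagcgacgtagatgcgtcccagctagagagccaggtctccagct
Mdm2 (chr10:117710709-117711008, minus strand): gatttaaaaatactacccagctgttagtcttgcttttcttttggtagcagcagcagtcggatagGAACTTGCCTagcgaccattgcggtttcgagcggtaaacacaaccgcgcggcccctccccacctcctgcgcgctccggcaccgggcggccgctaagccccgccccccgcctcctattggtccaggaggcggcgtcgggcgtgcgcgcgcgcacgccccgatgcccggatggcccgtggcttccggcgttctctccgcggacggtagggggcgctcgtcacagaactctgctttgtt
Ei24 (chr9:36797285-36797584, minus strand): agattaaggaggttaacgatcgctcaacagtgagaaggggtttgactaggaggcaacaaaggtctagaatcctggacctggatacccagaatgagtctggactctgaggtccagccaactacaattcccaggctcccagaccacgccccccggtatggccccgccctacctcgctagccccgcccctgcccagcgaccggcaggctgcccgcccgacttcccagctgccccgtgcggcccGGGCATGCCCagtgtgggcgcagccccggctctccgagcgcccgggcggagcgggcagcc
The Ccng1 match lay at bases -185 to -176 from the start, the Mdm2 match at -186 to -177, and the Ei24 match, GGGCATGCCC, at -10 to -1.

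In the thyroid at 9:00, Ccng1, Cdkn1a and Fas were higher after 131I. Ccng1 encodes cyclin G1, a p53 target that recruits a phosphatase to Mdm2. On its brightest probe it measured 10.26, 11.31, 11.50 and 11.45 in the 131I samples, against 10.002, 10.14, 10.06 and 10.09 in the saline samples. The means were 11.13 ± 0.59 with 131I and 10.07 ± 0.06 with saline (SD, n = 4 each), a difference of 1.06 ± 0.24 (SE, log2) or 2.08-fold (limma, adjusted p = 0.00447). The groups did not overlap, but replicate 1 of the 131I samples lay just above the saline range. The other Ccng1 probes differed by 1.08 (adjusted p = 0.0035) and 1.12 (adjusted p = 0.00657).

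Cdkn1a encodes p21, the inhibitor of cyclin-dependent kinases that arrests the cycle in G1. Its regulated probe is dim and measured 5.99, 5.94, 6.04 and 5.71 in the 131I samples, against 5.25, 5.34, 4.64 and 4.81 in saline, where 2 of 5 arrays were above background. It differed by 0.91 ± 0.24 (SE, log2, adjusted p = 0.00919). The brightest Cdkn1a probe measured 7.75, 7.95, 8.72 and 8.50 in the 131I samples, against 7.11, 7.21, 6.40 and 6.81 in saline, and its larger difference, 1.35 ± 0.36 (SE, log2), missed the threshold by little (adjusted p = 0.0104). Here all 4 131I samples lay above all 10 thyroid saline samples of the 3 times, of which the highest was 7.43 (15:00, replicate 1). Fas encodes a death receptor of the tumour necrosis factor family. Its regulated probe measured 5.68, 6.82, 6.04 and 6.12 in the 131I samples, against 5.23, 5.16, 4.73 and 5.65 in saline. The difference was 0.97 ± 0.25 (SE, log2, adjusted p = 0.00978), and its brighter probe differed by as much, 0.97, with an adjusted p of 0.0298. On the regulated probe the saline samples measured 5.79, 6.01 and 5.30 at 12:00, and 6.25, 6.00 and 6.06 at 15:00. These later saline samples overlapped the 131I samples of 9:00.

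The regulated member probes were 5 of 39 tested, while 12.3% of all 12144 probes were regulated in the same comparison. At an unadjusted p-value under 0.05 there were 19 member probes, 16 higher and 3 lower, against 40.8% of all probes. Gadd45b, a stress sensor that signals to p38 and JNK, measured 5.62, 7.70, 5.82 and 5.60 in the 131I samples, against 4.69, 4.76, 5.21 and 4.79 in saline, where 1 of 5 arrays was above background. It differed by 1.32 (adjusted p = 0.0116), and by 0.82 (adjusted p = 0.0225) without 131I, 9:00, replicate 2, the highest sample. Sesn1, an antioxidant sestrin, differed by 0.62 and Rrm2b, the p53-inducible ribonucleotide reductase subunit, by 0.60. Ei24, Tnfrsf10b and Ddb2 had differences of -0.29, -0.41 and -0.32. The median difference over the 25 genes was 0.10, beside 0.08 over all probes.

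Markers of other tissues moved with these groups. The 18 skeletal muscle markers tested (of 18 with a probe) had a mean level of 5.42 in 131I replicate 1 and of 12.43, 12.51 and 12.69 in 131I replicates 2 to 4, against 4.80 to 5.23 in the 4 saline samples. The 12 salivary gland markers tested (of 16) had a mean level of 5.002 to 5.24 in the 131I samples, against 12.12 to 12.82 in saline. A 131I sample without either signal, replicate 1, had 10.26 on the brightest Ccng1 probe, within the 10.06 to 10.54 of the saline samples of 12:00 and 15:00, and 7.75 on the brightest Cdkn1a probe, above all saline samples. The other thyroid samples with muscle signal were 131I, 15:00, replicate 2 (muscle mean 11.51, Ccng1 10.68) and saline, 15:00, replicate 1 (muscle mean 10.69, Ccng1 10.54), the highest Ccng1 samples of their groups. On the brightest Cdkn1a probe that saline sample measured 7.43, against 6.60 and 6.52 in the rest of its group. The 131I sample measured 6.97 there, within the 5.77 to 7.51 of its group. With both marker levels as covariates 0 member probes were regulated at any time, and the brightest Ccng1 and Cdkn1a probes differed at 9:00 by 0.13 and 0.28. Without the 5 muscle-bearing samples, which leaves 1 131I sample at 9:00 assumed to vary like the other groups, 0 were regulated and the same probes differed by 0.19 and 0.87 (adjusted p = 0.602 and 0.345). In bulk tissue, a change in the share of cells and a change of RNA per cell cannot be told apart.

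Leaving out 131I, 9:00, replicate 2, 3 or 4, or saline, 9:00, replicate 3, left 0 regulated member probes in the thyroid. Without saline, 9:00, replicate 1 there was 1 and without replicate 4 there were 2. Without 131I, 12:00, replicate 1, saline, 12:00, replicate 2, 131I, 15:00, replicate 2 or 3, or saline, 15:00, replicate 3, there were 3, all of Ccng1.

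**Figure D2:**
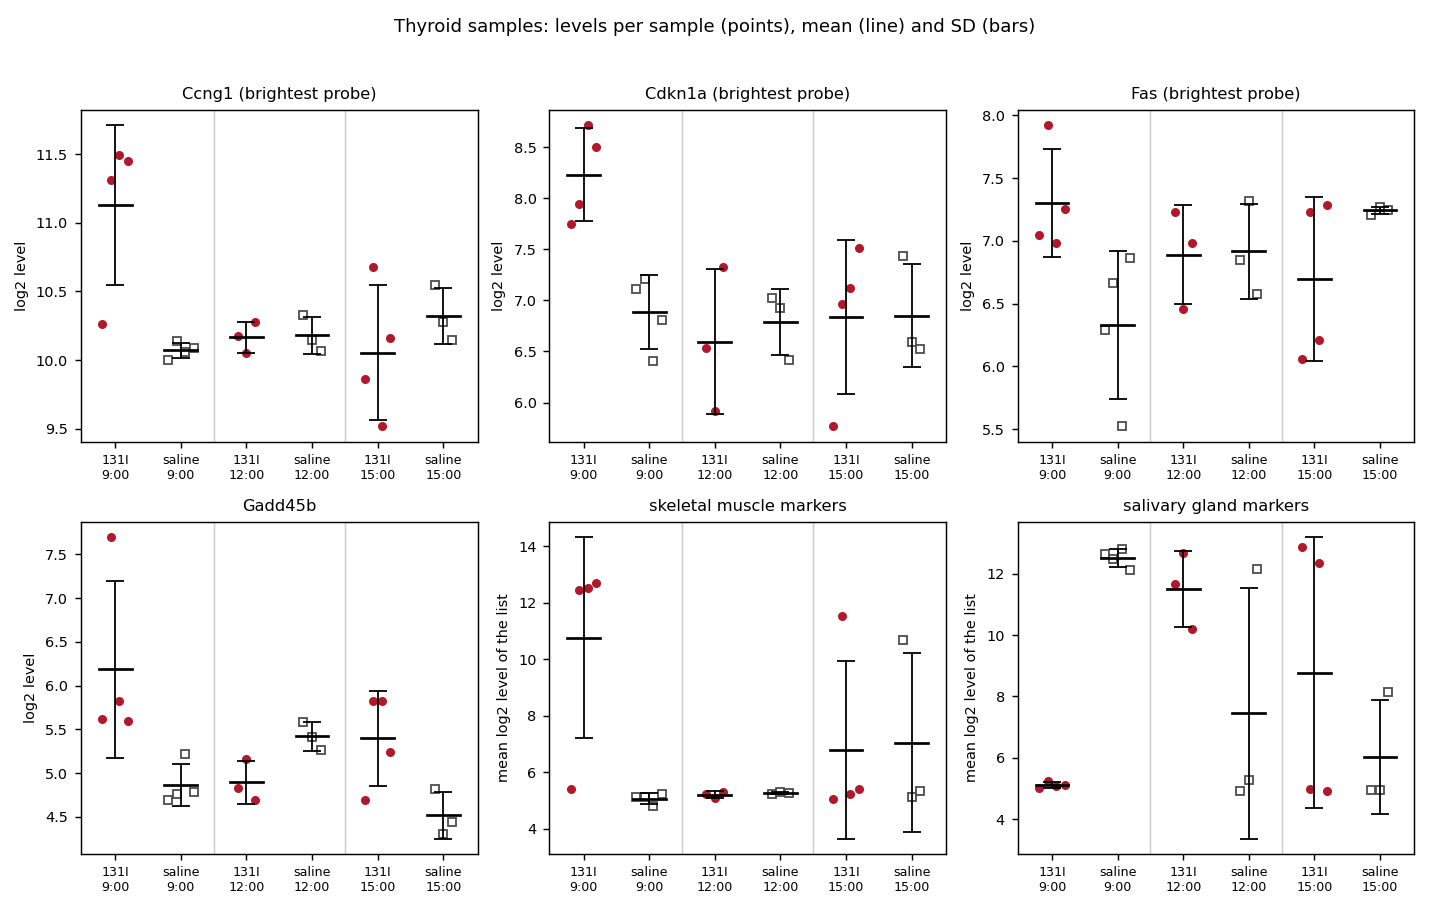
Log2 levels in the thyroid samples (points, filled circles 131I, open squares saline) with mean and SD by treatment and injection time, for 4 members and for the mean of the skeletal muscle and salivary gland marker lists. Ccng1, Cdkn1a, Fas and Gadd45b lie higher with 131I at 9:00, where 3 of 4 131I samples have muscle marker means of 12.43 to 12.69 and the saline samples have salivary means of 12.12 to 12.82.

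At 12:00, 0 of 39 member probes were regulated (0% of all) and 2 had an unadjusted p-value under 0.05 (3.24% of all), both of Gadd45a, with -0.81 and -0.77. At 15:00 these counts were 0 (0% of all) and 2 (12.5% of all), and pooled over times 0 (0% of all) and 3 (11.4% of all). Cdkn1a differed by -0.01 at 15:00, with a 95% confidence interval of -0.82 to 0.80.

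In the kidney cortex at 9:00 several p53 targets were nominally higher after 131I, with 0 of 43 member probes regulated (0% of all). Member probes with an unadjusted p-value under 0.05 numbered 9, 8 of them higher (3.87% of all probes), and the smallest adjusted p was 0.999. A dim Cdkn1a probe measured 6.32, 6.34, 5.28 and 5.85 in the 131I samples, against 5.04, 4.62, 4.81 and 4.97 in saline, groups that did not overlap. No saline array was above background, so the difference is a bound, at least 1.66-fold higher with 131I. Such a bound sets the mean of the bright group against that of the weakest detected probe on each array of the dim group, or the probe's own level where higher. The brightest Cdkn1a probe, at 7.95, 8.66, 7.03 and 8.09 with 131I against 6.91, 7.02, 7.21 and 7.55 with saline, did overlap. Mdm2 measured 9.53, 9.40, 9.52 and 9.43 in the 131I samples, against 9.13, 9.31, 9.26 and 9.34 in saline, a small difference of 0.21 between groups that did not overlap. Fas measured 8.10, 8.67, 8.20 and 8.09, against 7.84, 7.97, 7.85 and 8.03, a difference of 0.34. Gadd45b and Ei24, an apoptosis-associated endoplasmic reticulum protein, had differences of 0.47 and 0.20. Gtse1, a G2 and S phase protein that binds p53, was not above background on any saline array. It was so on 3 of 4 131I arrays and at least 1.14-fold higher there. A dim probe of Bbc3 (PUMA, a pro-apoptotic BH3 protein) was above background on no saline array and on 1 of 4 131I arrays. Its 131I samples measured 5.03, 5.17, 5.14 and 5.72, beside a bound level of 5.22. Its bound of 1.03-fold thus sets apart groups that both lay at or near background. Tnfrsf10b, the mouse TRAIL death receptor, had -0.36. Of the 27 genes 20 had a difference above 0, with a median of 0.20, beside -0.01 over all probes.

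At 12:00 in the cortex, 0 member probes were regulated (0.141% of all) and 3 had an unadjusted p-value under 0.05 (9.6% of all). Mdm2 was among them with the opposite sign, -0.28, and Fas with 0.35. At 15:00 the counts were 0 (0% of all) and 3 (6.73% of all), and pooled 0 (0% of all) and 3 (9.93% of all), where Fas was at 0.25 (adjusted p = 0.329).

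In the kidney medulla, Ddit4 was lower after 131I. Ddit4 encodes REDD1, an inhibitor of the growth kinase complex mTORC1 that p53, hypoxia and glucocorticoids induce. It measured 7.78, 7.20, 7.27 and 7.33 in the 131I samples of 9:00, against 7.54, 8.19 and 7.78 in saline. At 12:00 it measured 6.87, 7.02, 7.15 and 7.10 with 131I, against 7.44, 7.88 and 7.97 with saline. At 15:00 it measured 6.98, 7.15, 6.998 and 7.52, against 8.06, 7.79 and 7.43. The groups did not overlap at 12:00 and overlapped at the other times. The mean of the 3 differences was -0.59 ± 0.11 (SE, log2), or 1.5-fold (limma, adjusted p = 0.00151), right at the fold limit, and 1 of 43 member probes was so regulated (2.79% of all). Ddb2, the damage-recognition subunit of nucleotide excision repair, had a pooled difference of -0.40 ± 0.07 (SE, log2) and an adjusted p of 0.00152, under the fold limit. At an unadjusted p-value under 0.05 there were 12 member probes pooled, 5 higher and 7 lower (28.1% of all).

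Leaving out a sample brought Ddit4 under 1.5-fold in 11 of 21 cases, namely 131I, 9:00, replicates 2, 3 and 4, saline, 9:00, replicate 2, 131I, 12:00, replicate 1, saline, 12:00, replicates 2 and 3, 131I, 15:00, replicates 1 and 3, and saline, 15:00, replicates 1 and 2. The differences without a sample ran from -0.65 to -0.53, with adjusted p at most 0.00476. Markers of kidney regions moved with the treatment. The 16 papilla and urothelium markers tested (of 17) had a mean level of 6.48 to 8.46 in the 131I samples, against 8.01 to 9.31 in saline, and the 16 proximal tubule markers (of 17) one of 10.13 to 10.99 with 131I, against 9.53 to 10.67 with saline. With both marker levels as covariates the pooled difference of Ddit4 was -0.23 (adjusted p = 0.919) and that of Ddb2 was -0.25 (adjusted p = 0.878). The papilla marker means did not overlap between treatments at 9:00 and at 12:00 (6.48 to 7.36 with 131I at 12:00, 8.58 to 9.13 with saline), and overlapped at 15:00. Marker level and treatment were thus hard to separate in that fit, and the cause was not tested.

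At 12:00 in the medulla 0 of 43 member probes were regulated (4.25% of all). Those with an unadjusted p-value under 0.05 numbered 13, 12 of them lower, a share close to the 29.2% of all probes. Ddb2 measured 7.23, 7.07, 6.97 and 6.98 with 131I, against 7.86, 7.60 and 7.47 with saline, a difference of -0.58 (adjusted p = 0.00565) that fell just short of 1.5-fold, and of -0.36 (adjusted p = 0.801) with the marker levels as covariates. Polk, a translesion DNA polymerase, measured 7.27, 7.26, 7.03 and 7.27, against 7.57, 7.83 and 7.58, a difference of -0.45 (adjusted p = 0.0116). Phlda3, a p53-induced inhibitor of AKT signalling, had -1.02 on its brightest probe and -1.25 on the other (adjusted p = 0.0144), and became regulated in a fit of the 12:00 samples alone. Ddb2, at -0.64, was regulated without 131I, 12:00, replicate 1, and Phlda3 without 131I, 9:00, replicate 4 or saline, 9:00, replicate 2 or 3. Gtse1 was not above background on any of 4 arrays with 131I and was at least 1.37-fold lower there than with saline (adjusted p = 0.0258), Cdkn1a had -0.84, and Perp, a p53 target of desmosomes, was the member on the higher side, with 0.59.

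At 9:00 most nominal differences in the medulla were above 0, again with 0 regulated member probes (0% of all). Those with an unadjusted p-value under 0.05 numbered 11, 10 of them higher (18.3% of all). Ccng1 measured 11.63, 11.30, 11.40 and 11.33 with 131I, against 10.76, 10.72 and 11.18 with saline, a difference of 0.53 ± 0.12 (SE, log2, adjusted p = 0.032) between groups that did not overlap, while its dimmer probes overlapped. With the marker levels as covariates the difference was 0.35 (adjusted p = 0.606). Fas and Sesn2 had differences of 0.40 and 0.46 without overlap, and Rev1, a translesion polymerase, 0.61 with overlap. At 15:00 the counts were 0 (0% of all) and 5 (5.84% of all), with Ddb2 at -0.47 and Sesn1 at -0.45.

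**Figure D3:**
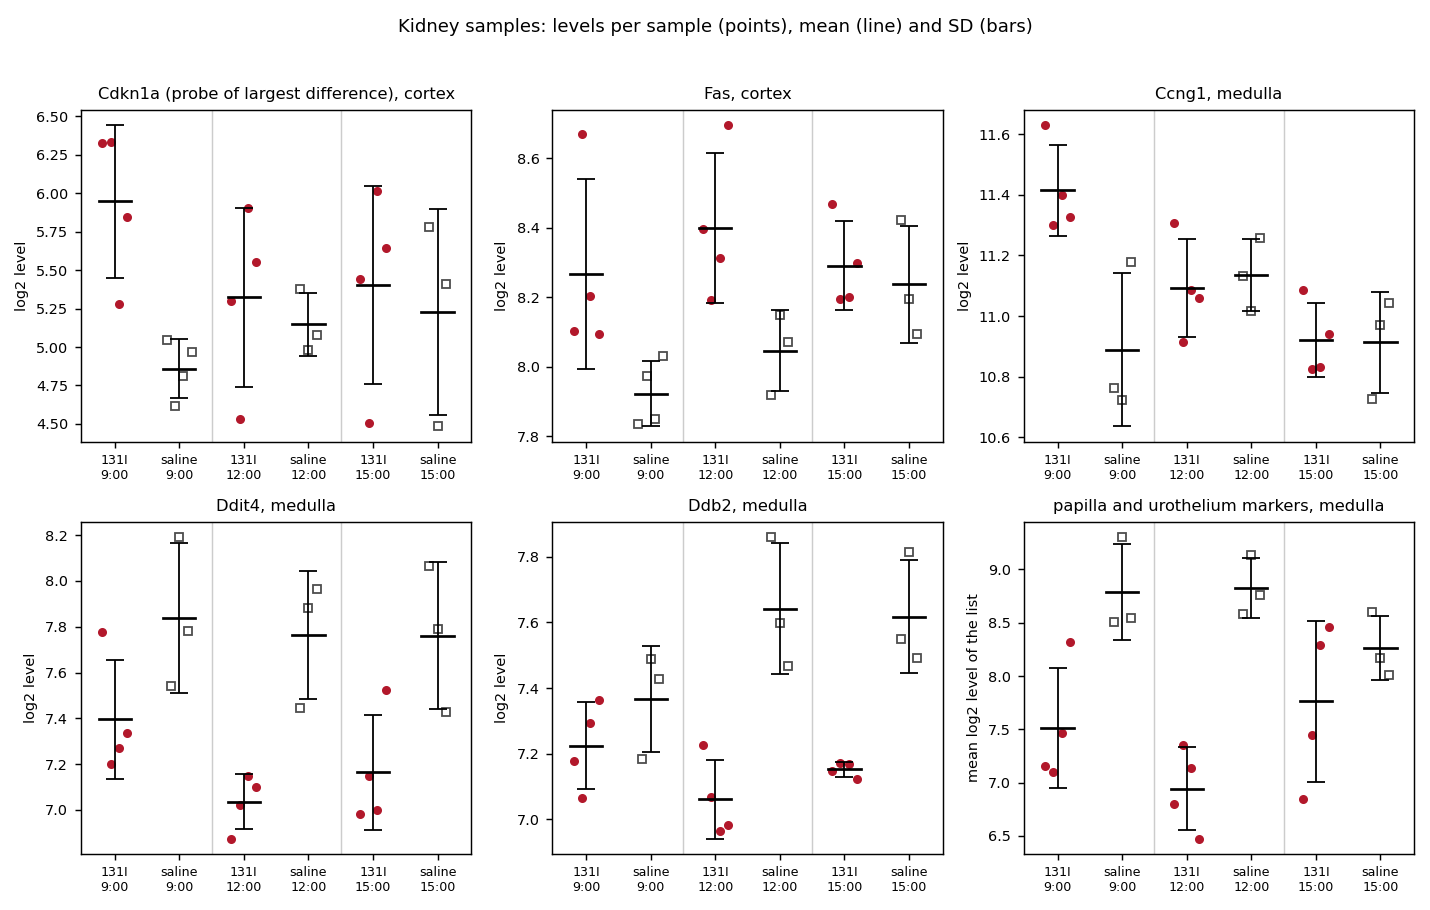
Log2 levels in the kidney samples (points, filled circles 131I, open squares saline) with mean and SD by treatment and injection time, for Cdkn1a and Fas in the cortex, for Ccng1, Ddit4 and Ddb2 in the medulla, and for the mean of the papilla and urothelium markers in the medulla. Ddit4 and the marker mean lie lower with 131I at 12:00, where the marker mean is 6.48 to 7.36 with 131I and 8.58 to 9.13 with saline.

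In the liver 0 of 36 member probes were regulated at 9:00 (0% of all), 12:00 (1.45% of all), 15:00 (0.0259% of all) or pooled (0.147% of all). The members at an unadjusted p-value under 0.05 numbered 1 at 9:00 (5.74% of all), 7 at 12:00 (14% of all), 3 at 15:00 (13.4% of all) and 4 pooled (11.7% of all). At 12:00, Gadd45g, a stress-induced relative of Gadd45b, measured 9.89, 11.06, 11.58 and 11.66 with 131I, against 8.64, 9.63 and 10.34 with saline, overlapping groups that differed by 1.51 (adjusted p = 0.253). Bbc3 and Trp53inp1, a p53 cofactor that also takes part in autophagy, differed by 0.69 and 0.58 at that time. Cdkn1a measured 5.13, 4.66, 4.98 and 4.92 with 131I, against 5.27, 5.77 and 6.07 with saline, groups that did not overlap. No 131I array was above background there, so Cdkn1a was at least 1.32-fold lower with 131I (adjusted p = 0.209).

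In the lungs the counts of regulated member probes were 0 of 48 at each time and pooled (0% of all in each). Those with an unadjusted p-value under 0.05 numbered 4 at 9:00 (7.34% of all), 1 at 12:00 (2.06% of all), 1 at 15:00 (2.55% of all) and 4 pooled (3.7% of all). Polk measured 8.37, 8.42, 8.43 and 8.45 with 131I at 9:00, against 7.72, 7.96, 7.99 and 7.73 with saline, a difference of 0.57 ± 0.14 (SE, log2) without overlap and with an adjusted p of 0.624. Bbc3 measured 8.68, 8.57, 8.63 and 8.73, against 7.75, 8.44, 8.31 and 7.76, a difference of 0.59. The saline samples of 12:00 and 15:00 had Polk levels of 7.95 to 8.62, which reach those of the 131I samples.

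In the spleen, 0 of 48 member probes were regulated at each time and pooled (0% of all in each), and those at an unadjusted p-value under 0.05 numbered 5 at 9:00 (4.51% of all), 1 at 12:00 (6.36% of all), 1 at 15:00 (2.73% of all) and 0 pooled (2.44% of all). Xpc, the sensor of nucleotide excision repair, and Zmat3, a p53-induced RNA-binding protein, had the largest values on the higher side at 9:00, 0.79 and 0.64, and 3 Ddb2 probes were the others. Pooled over times the median 95% confidence interval of a member gene reached 0.32 (log2) to either side in the spleen, 0.24 in the lungs, 0.27 in the liver, 0.22 in the cortex, 0.21 in the medulla and 0.30 in the thyroid.

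Whether the response to 131I differed between the 3 times was tested for each probe. At an adjusted p-value under 0.01, 0 member probes differed in the thyroid (0% of all), spleen (0% of all), lungs (0% of all), liver (0.545% of all), cortex (0.00783% of all) and medulla (0% of all). At an unadjusted p-value under 0.05 there were 13 in the thyroid (34.6% of all), 0 in the spleen (4.69% of all), 2 in the lungs (3.32% of all), 5 in the liver (14.5% of all), 2 in the cortex (5.94% of all) and 14 in the medulla (14.8% of all). The smallest adjusted p was that of a Ccng1 probe in the thyroid, 0.0136. Without 131I, 9:00, replicate 1, 2 Ccng1 probes passed, and without 131I, 15:00, replicate 2, a muscle-bearing sample, all 3 did. In the medulla Mdm2 (adjusted p = 0.145), Gtse1 and Ccng1 had the smallest values.

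Members differed between injection times in saline livers. At an adjusted p-value under 0.01, 3 of 36 member probes differed between the 3 times (4.7% of all). They were the brightest probes of Cdkn1a, Bbc3 and Trp53inp1. The other tested probes of these genes did not pass. In the same moderated F test their adjusted p was 0.133 for Cdkn1a, 0.631 and 0.911 for Bbc3, and 0.29 for Trp53inp1. Cdkn1a measured 7.26, 7.03, 6.91 and 7.48 in saline livers at 9:00, 5.27, 5.77 and 6.07 at 12:00, and 4.56, 5.79 and 4.51 at 15:00. The means were 7.17 ± 0.25 (n = 4), 5.70 ± 0.40 (n = 3) and 4.95 ± 0.73 (n = 3) with SD, and the difference of 15:00 from 9:00 was -2.22 ± 0.30 (SE, log2), or 4.65-fold (limma, adjusted p = 5.6e-05). At 15:00, 1 of 4 arrays was above background, so the lowest values are bounded by the background. The 131I livers had 6.93, 5.97, 7.12 and 7.01 at 9:00, 5.13, 4.66, 4.98 and 4.92 at 12:00, and 4.50, 4.37, 5.22 and 4.63 at 15:00, where 4 of 4, 0 of 4 and 1 of 4 arrays were above background, so that the levels of 12:00 and 15:00 have no order.

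Bbc3 measured 9.06, 9.10, 8.43 and 8.75 in saline livers at 9:00, 7.52, 8.71 and 8.01 at 12:00, and 7.54, 7.47 and 7.49 at 15:00, a difference of -1.34 ± 0.25 (SE, log2) between 15:00 and 9:00 (adjusted p = 0.00141). Trp53inp1 measured 8.87, 9.14, 8.98 and 9.29 at 9:00, 8.37, 8.85 and 7.82 at 12:00, and 9.33, 9.76 and 9.17 at 15:00, and was 1.07 ± 0.23 (SE, log2) higher at 15:00 than at 12:00 (adjusted p = 0.007). Rev1 had a difference of 0.99 between 15:00 and 9:00 (adjusted p = 0.0164). In the test over the 3 times, Cdkn1a passed with any 1 sample left out. Bbc3 did not pass without saline, 9:00, replicate 1 or 2, or saline, 15:00, replicate 2. Trp53inp1 still passed without 131I, 9:00, replicate 1 or 4, saline, 9:00, replicate 1, 131I, 12:00, replicate 1 or 2, saline, 12:00, replicate 2, 131I, 15:00, replicate 2 or 4, or saline, 15:00, replicate 3, and not without any of the other 13 samples. The 10 clock genes tested had a mean level in saline livers of 6.91 to 7.57 at 9:00, 8.03 to 8.35 at 12:00 and 8.38 to 8.80 at 15:00. This mean over the list does not show whether single clock genes moved the other way.

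**Figure D4:**
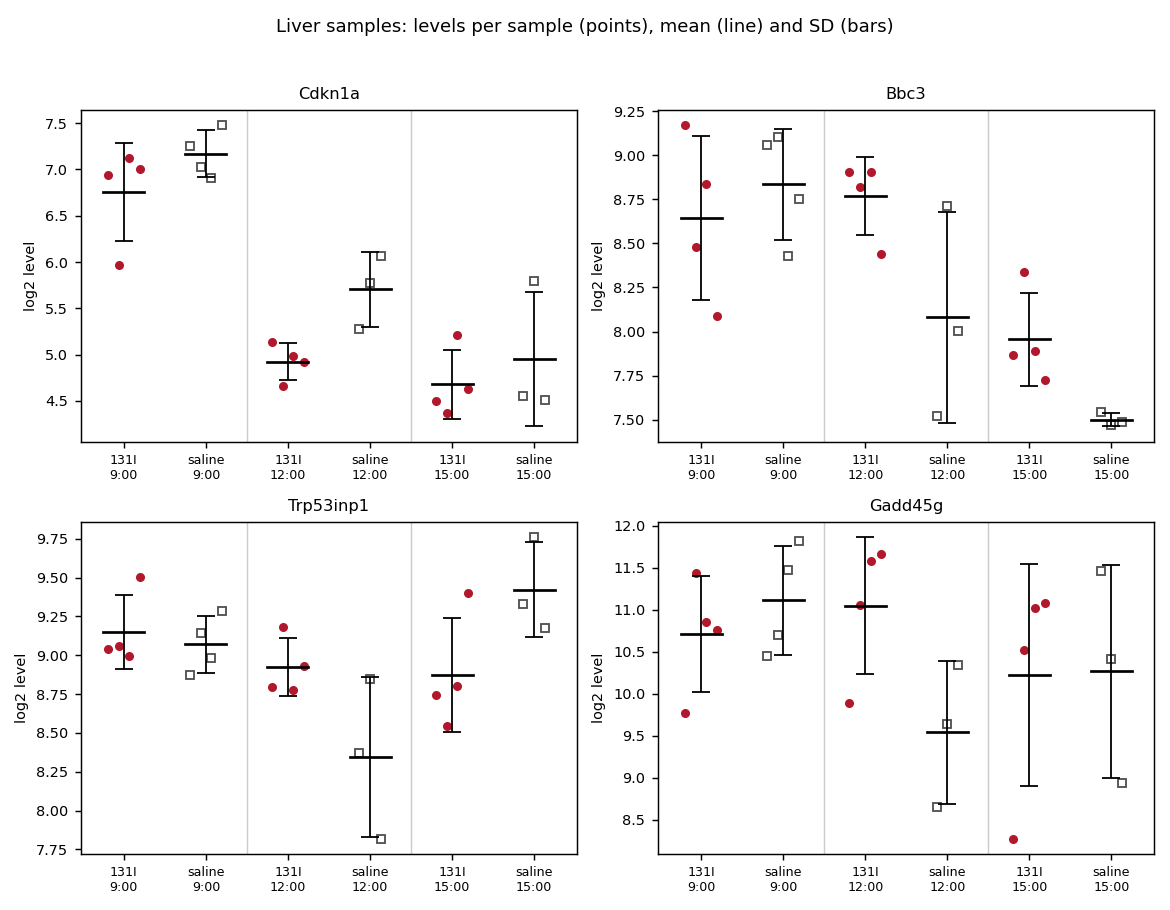
Log2 levels of Cdkn1a, Bbc3, Trp53inp1 and Gadd45g in the liver samples (points, filled circles 131I, open squares saline) with mean and SD by treatment and injection time. Cdkn1a lies near 7 at 9:00 in saline livers (7.17) and lower at 12:00 (5.70) and 15:00 (4.95), and the 131I livers of 12:00 and 15:00 lie at or near background.

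Saline samples of the other tissues were tested in the same way. At an adjusted p-value under 0.01 there were 1 of 39 in the thyroid (8.43% of all), 0 in the spleen (0.00758% of all), 0 in the lungs (0.0142% of all), 0 in the cortex (0.243% of all) and 0 in the medulla (0.106% of all). At an unadjusted p-value under 0.05 there were 12 in the thyroid (40.7% of all), 3 in the spleen (6.45% of all), 11 in the lungs (8.09% of all), 10 in the liver (23.1% of all), 6 in the cortex (16.6% of all) and 7 in the medulla (11.3% of all). The thyroid probe was that of Ei24, at 9.28, 8.99, 9.13 and 9.17 at 9:00, 8.41, 8.55 and 8.70 at 12:00, and 8.96, 9.45 and 9.14 at 15:00 (adjusted p = 0.00753). Rev1 in the thyroid was 0.80 higher at 15:00 than at 9:00 (adjusted p = 0.00672), and it was above background on 1 of 5 arrays of the 9:00 group. In the thyroid the salivary signal moved with these groups, at 12.12 to 12.82 in saline samples of 9:00, 4.93 to 12.16 at 12:00 and 4.95 to 8.16 at 15:00, and with both marker levels as covariates 0 member probes differed. In the lungs Ercc5, the endonuclease XPG of excision repair, had a difference of 0.65 between 15:00 and 9:00 (adjusted p = 0.178).

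The level of the members without 131I varied between tissues. Over the saline samples, with all arrays normalized together, the median range between tissue means was 1.88 (log2) for the 29 member genes above background on at least 3 arrays, beside 1.45 over all 16236 such probes. Each member gene was taken on its brightest probe, while the values over all probes include the dim ones. Members and all probes are therefore not like sets, here and in the next count. For 5 of the 29 genes every sample of the highest tissue lay above every sample of the other tissues (17.9% of all probes). These 5 were Phlda3, highest in the thyroid (11.15 ± 0.76 against 8.25 ± 0.51 in the lungs), Ei24 in the liver (10.41 ± 0.11 against 9.75 ± 0.30 in the thyroid), Plk2, a stress-induced polo-like kinase, in the lungs (8.68 ± 0.45 against 6.83 ± 0.40 in the medulla), Trp53inp1 in the spleen (10.69 ± 0.37 against 9.71 ± 0.30 in the lungs) and Gtse1 in the spleen (7.77 ± 0.66 against 5.19 ± 0.53 in the medulla, SD, n = 10 and 9 in the medulla).

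Cdkn1a was highest in the lungs (9.09 ± 0.48), followed by the medulla (7.69 ± 0.37), thyroid (7.68 ± 0.35), cortex (7.19 ± 0.27), spleen (7.06 ± 0.58) and liver (6.40 ± 1.19), and each neighbouring pair in that order overlapped. Ccng1 was at 10.88 ± 0.14 in the cortex, 10.77 ± 0.14 in the thyroid and 10.76 ± 0.21 in the medulla, which overlapped, and at 8.47 ± 0.21 in the liver, below every sample of the spleen (10.01 ± 0.33). Rrm2b in the liver, at 6.37 ± 0.39, was likewise below every sample of the next tissue, the cortex (8.17 ± 0.20). Apaf1, the core of the apoptosome, and Sesn1 had their highest means in the spleen (9.21 ± 0.30 and 10.61 ± 0.51), and Gadd45b in the lungs (8.39 ± 0.39), each overlapping the next tissue. Sesn2 was highest in the cortex (7.56 ± 0.40).

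**Figure D5:**
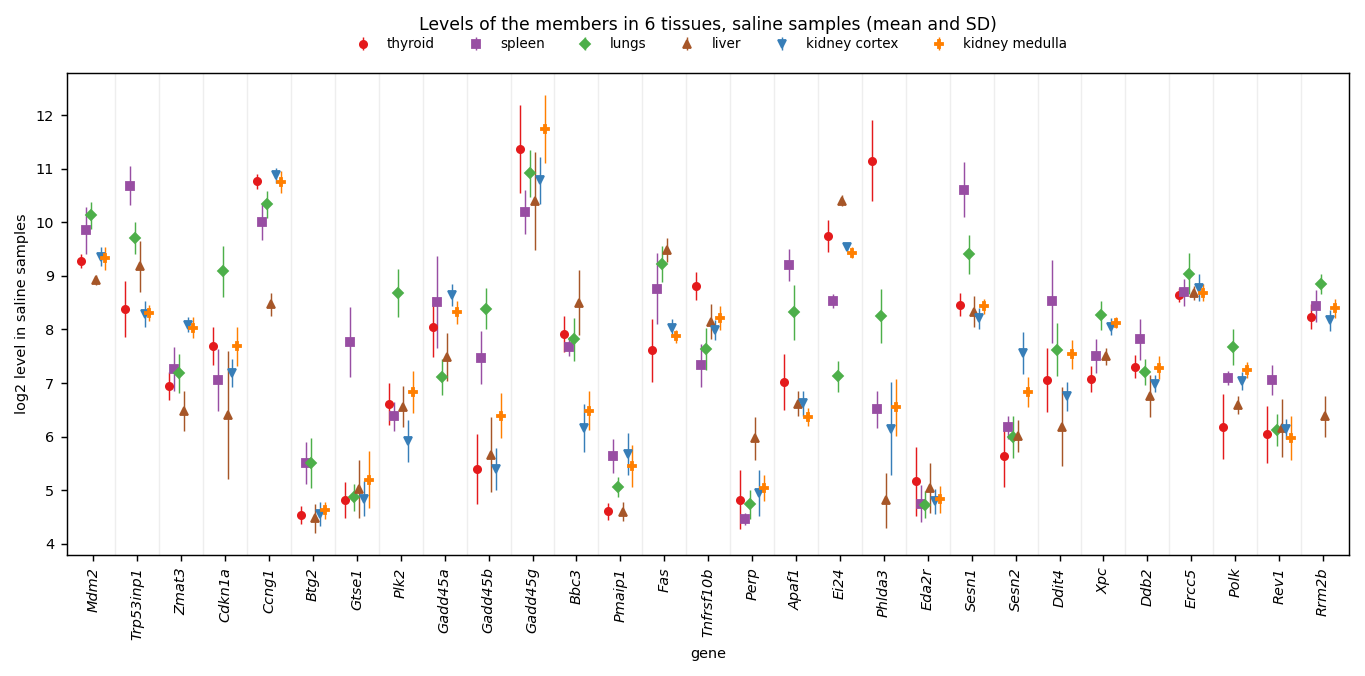
Mean and SD of the log2 level of 29 member genes in saline samples of 6 tissues, all arrays normalized together. Levels are to be compared within a gene, and Phlda3 in the thyroid (11.15), Gtse1 in the spleen (7.77) and Plk2 in the lungs (8.68) stand apart from the other tissues.

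Genes of related pathways were counted in the same way. In 24 comparisons each, the regulated genes among 18 p53 family members and regulators were 0 higher and 6 lower, among 24 other p53 targets 1 higher and 5 lower, among 18 genes of excision and mismatch repair 0 higher and 1 lower, among 9 of translesion synthesis 1 higher and 0 lower, among 13 proliferation genes 0 higher and 1 lower, and among 16 genes of strand break repair and 11 of apoptosis 0 in either direction, counting a gene anew in each comparison. In the medulla there were 3 lower of 78 tested at 12:00 (4.25% of all probes regulated) and 2 lower pooled (2.79%). The liver had 1 lower of 69 at 12:00 (1.45%) and 1 higher pooled (0.147%). In the thyroid at 9:00 there were 1 higher and 7 lower of 73 tested, beside 12.3% of all probes regulated. There Atm, the kinase that senses strand breaks, was at -1.14, and Trp63, the p53 relative of epithelial cells, at -2.11. Ube2b, a ubiquitin ligase partner of translesion synthesis, was at 1.03. Salivary and muscle signal also differed between these thyroid groups, and its part in these values was not tested. The list genes at an unadjusted p-value under 0.05 in the thyroid at 9:00 were 11 higher and 16 lower of the 73, beside 40.8% of all probes. The list medians lay between -0.85 and 0.38 (log2) over all comparisons, both ends being of the proliferation list, of which 3 to 11 genes were tested.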

How the data were processed

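RNA of 6 tissues from 131I-injected and saline-injected mice was measured on 136 arrays, of which 6 were repeats, averaged with their replicate to give 130 samples. The authors scanned the arrays with Illumina software and deposited probe intensity and a detection p-value per array, and their own values were quantile-normalized over all arrays. Here the deposited intensities had their background removed by limma 3.58.1 (nec, from detection p-values, offset 16), quantile-normalized within a tissue and taken to log2. In each tissue, probes detected (p-value under 0.01) on 3 arrays or more entered a fit of its 6 groups (lmFit, eBayes with trend, R 4.3.3), with Benjamini-Hochberg adjustment over all probes tested. Named members are those regulated or with an unadjusted p-value under 0.001 in any comparison, and Cdkn1a, with Gadd45b in the thyroid added after its values were seen and others given as counts and examples. The members and lists were chosen with earlier results of these data known. Probes were named through the platform annotation (23978 with 1 symbol, 1719 with none). The number of arrays limits the precision. The tests were checked on simulated data. Alternatives were other background correction, scaling, filters and models, the deposited normalized values, leaving out each sample, and, chosen after seeing the data, marker levels as covariates.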

Additional observations from a re-analysis of the deposited data

Results flagged for a closer look

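Of 63 groups of 4 samples of named members, 4 had a sample set apart from the others by a gap large against the range of the group, and chance alone sets apart about 1 in 20 groups. Ccng1 in the thyroid, 131I, 9:00, had replicate 1 at 10.26, below the 11.31 to 11.50 of the others, a gap of 0.849 of the range, and this is the 131I sample of that group with a muscle marker mean of 5.42. Gadd45b in the thyroid, 131I, 9:00, had replicate 2 at 7.70, above 5.60 to 5.82 in the others, a gap of 0.893 of the range. Cdkn1a in the liver, 131I, 9:00, had replicate 2 at 5.97, below 6.93 to 7.12 in the others, a gap of 0.836 of the range. Trp53inp1 in the liver, 131I, 9:00, had replicate 4 at 9.50, above 9.00 to 9.06 in the others, a gap of 0.877 of the range.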

How the results depend on the processing

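Of 712 counts of members computed under another setting, 654 were within 1.5 times the reported count, and all 118 were so in each of the spleen, lungs and kidney cortex. In these tissues every count was 0 beside a reported 0, as were many counts elsewhere, so this agreement says little. The 5 regulated probes at single times in the thyroid were 8 under median scaling, 3 with no filter on dim probes, 0 with salivary and muscle marker levels as covariates, 0 without the muscle-bearing samples, and 0 to 7 with 1 sample left out. With background uncorrected or with the deposited normalized values the brightest Cdkn1a probe was regulated in place of the dim one. The difference of 1 Ccng1 probe there turned to -0.0083 with the covariates. The 1 thyroid probe that differed with injection time in saline was 0 under median scaling, no filter, the covariates and without the muscle-bearing samples, and 0 to 2 with 1 sample left out, and the response that differed between times, 0, was 0 to 3. In the medulla the 1 pooled call was 0 with background uncorrected, with the deposited values and with papilla and proximal tubule covariates, and 0 to 1 with 1 sample left out, while the 0 calls at single times were 2 when each time was fitted alone and 0 to 2 with 1 sample left out. In the liver the 3 probes that differed with injection time in saline were 1 under median scaling and 1 to 3 with 1 sample left out. The cause was not tested.

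The replicate number used as a block gave 3 calls in the medulla at single times in place of 0, and 0 in place of 1 for injection time in thyroid saline samples. Same-numbered samples did not deviate together (59 pairs, r from -0.627 to 0.445, median 0.00547), so they share only a number. Slide as a block was not run, since the file headers used here name no slide. Dim probes, at or near background in a group, limit what can be seen of low members.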

Other observations

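Gadd45g varied between liver samples of 1 group by more than other members, at 8.27, 10.51, 11.02 and 11.08 in the 131I livers of 15:00, against 11.45, 10.42 and 8.93 in the saline livers of that time. Phlda3 spanned 8.61 to 11.87 over the thyroid samples.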
